A study of Mus musculus with 6 samples.

Results

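The genes described are 9 receptors that myeloid cells carry on their surface, most of which restrain activation, and Ptpn6, the gene of the tyrosine phosphatase SHP-1 through which many of them act. The receptors are Cd72, Pirb, Sirpa, Siglec1, Siglece, Cd33, Pilra, Lair1 and Cd200r1. The 10 genes were chosen by name, with earlier results of these data known, as were the lists of related genes used below. All 10 of them were listed in every library, of 16871 genes listed in any. RNA was sequenced from macrophages grown for 7 days from the bone marrow of C57BL/6 mice aged 8 weeks and then exposed to oxLDL, oxidised low-density lipoprotein. There were 3 libraries of double knockout cells (DKO), which lack both ALDH2, a mitochondrial aldehyde dehydrogenase, and the LDL receptor, and 3 of LDL receptor knockout cells (LKO), the control. Cells of both groups thus lacked the LDL receptor and had received oxLDL, and the labels name neither a dose nor a time for it. The labels do not tell whether each library had its own mouse; the p-values therefore rest on the variation among these libraries, which may be technical.

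Inhibitory receptors of this kind carry immunoreceptor tyrosine-based inhibitory motifs (ITIMs) in their cytoplasmic tails. Once phosphorylated by Src family kinases, an ITIM recruits the phosphatases SHP-1 (Ptpn6), SHP-2 (Ptpn11) or SHIP1 (Inpp5d), which oppose signals from receptors that couple to ITAM adaptors such as DAP12 (Tyrobp). Several are paired with an activating relative that binds like ligands. Not every one of the genes follows the ITIM scheme. For example, CD200R1 signals through Dok adaptors. Sialoadhesin (Siglec1) has a short tail without an ITIM and serves mainly in adhesion and in capturing sialylated particles.

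The libraries held between 10760625 and 10987584 expected counts, the authors' estimates of reads per gene. Aldh2 stood at 7.00, 7.06 and 7.34 FPKM (fragments per unit of transcript length and of sequencing depth) in DKO, against 248.64, 238.56 and 235.61 FPKM in LKO, which checks the labels of the deletion. All 10 macrophage markers, among them Csf1r, Adgre1 and Cd68, were present, at 17.4 FPKM or more in every library. The sum of 13 B cell markers was between 213 and 223 FPKM in DKO and between 225 and 258 FPKM in LKO. Most of it came from Cd37 and Cd79b, and Cd37 did not pass as changed. The sum of 17 neutrophil markers was between 427 and 466 FPKM in DKO and between 641 and 698 FPKM in LKO.

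Of the 10 genes, 3 were higher in DKO (Cd72, Siglec1 and Pirb), 2 were lower (Lair1 and Cd33) and 5 did not pass an edgeR adjusted p of 0.05. Without DKO replicate 3 or LKO replicate 3, and in limma, 3 of the 10 passed (Cd72, Siglec1 and Lair1). Across all 11809 genes tested, 14.3% passed, 7.42% as higher and 6.88% as lower. The log2 fold change of DKO over LKO had a median of -0.02 for the 10 genes and of 0.00018 for all tested genes. Cd72 and Siglec1 changed by far more than the other 8, whose log2 fold changes lay between -0.35 and 0.14. The FPKM ranges of the groups did not overlap for 8 of the genes, 3 with DKO above and 5 with DKO below. Over all tested genes such ranges were found for 29.6%, with DKO above for 13.6% and DKO below for 16.0%.

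**Figure D1:**
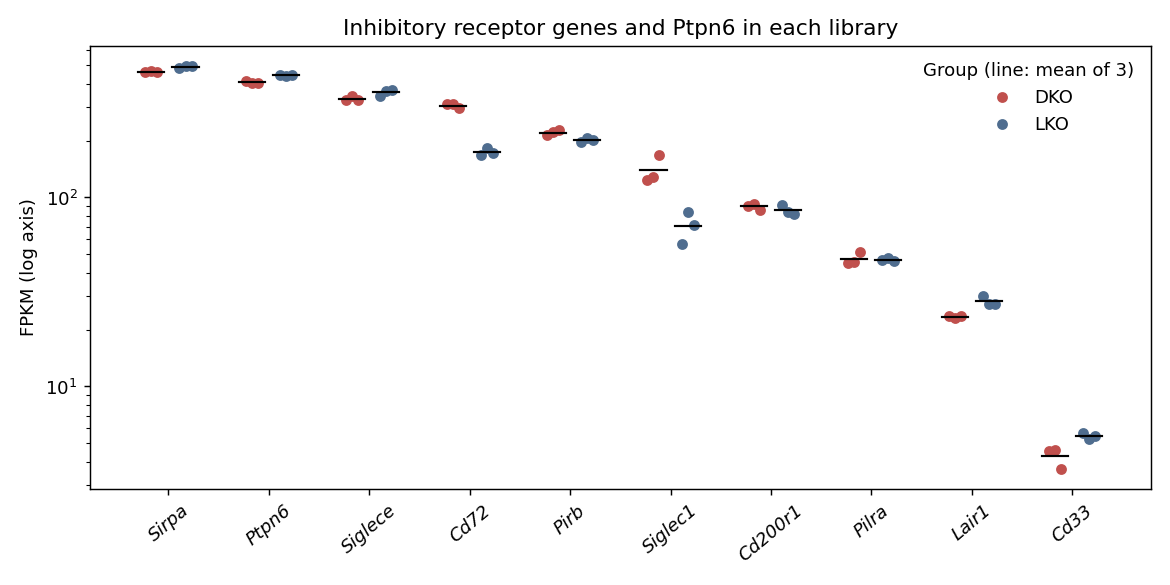
FPKM of each gene (log axis) in each of the 3 DKO and 3 LKO libraries, as points, with a line at the group mean, ordered by the DKO mean. Sirpa, Ptpn6 and Siglece are the most abundant in both groups, and Cd72 and Siglec1 show the widest gaps between groups.

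Cd72 encodes a C-type lectin-like receptor, best known on B cells, that binds the semaphorin Sema4d (CD100) and recruits SHP-1. Its level was 310.46, 310.89 and 296.36 FPKM in the DKO libraries, against 167.84, 181.62 and 172.23 FPKM in the LKO libraries. Every DKO library lay above every LKO library, by a gap much wider than the spread within either group. The group means were 306 ± 8.27 FPKM in DKO and 174 ± 7.04 FPKM in LKO (SD, n = 3 each). On the log2 scale the difference was 0.86 (standard error 0.04), or 1.81-fold with a 95% interval of 1.70 to 1.93 (edgeR adjusted p = 7.95e-12). Of the 11809 tested genes, 136, or 1.15%, had a larger log2 fold change. The call held under all 13 alternative settings, with log2 fold changes between 0.81 and 0.88.

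The Cd72 counts were whole numbers, within 0.005, in every library. Its 4 RefSeq transcripts were combined into 1 value, and the transcript length that the files give for it, weighted over transcripts, was between 1471 and 1475 bases in DKO and between 1434 and 1449 bases in LKO. These ranges did not overlap, as was the case for 10% of the 3320 tested genes whose length varied by more than 1 base between libraries. The ratio of mean FPKM, which is scaled to that length, was 1.76, and the fitted difference in TMM-normalised counts, which is not, was 1.81-fold.

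Because Cd72 is a B cell gene, B cell markers were examined beside it. Of 10 tested, 7 fell in DKO and none rose (median log2 fold change -1.22). Ms4a1 (CD20) averaged 1.01 ± 0.284 FPKM in DKO and 3.17 ± 0.325 FPKM in LKO, and Cd79a averaged 2.66 ± 0.898 FPKM in DKO and 6.64 ± 1.68 FPKM in LKO (SD, n = 3 each). The lineage factor Pax5, too low to be tested, averaged 0.253 FPKM in DKO and 0.877 FPKM in LKO. Cd79b, at 77.6 ± 2.23 FPKM in DKO and 96.0 ± 3.87 FPKM in LKO, was far above Cd79a in both groups. Among the others that fell were Fcer2a, Fcrla and Ebf1, all at 1.07 FPKM or less in every library. Cd22, at 12.3 ± 1.47 FPKM in DKO and 12.4 ± 1.65 FPKM in LKO, and Cd37, a tetraspanin gene at 123 ± 0.293 FPKM in DKO and 118 ± 9.27 FPKM in LKO, did not pass (edgeR adjusted p = 0.974 and 0.436). The part of B cells in the Cd72 difference was not tested. In bulk RNA, fewer cells of a type and less RNA per cell cannot be told apart.

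Siglec1 encodes sialoadhesin (CD169), a macrophage lectin for sialic acids and a known interferon-induced gene. It stood at 123.15, 128.77 and 168.08 FPKM in DKO, against 56.76, 84.08 and 71.39 FPKM in LKO. The groups did not overlap, although libraries within each group differed more than for any other of the 10 genes. The means were 140.0 ± 24.5 FPKM in DKO and 70.7 ± 13.7 FPKM in LKO (SD, n = 3 each). On the log2 scale the difference was 0.996 (standard error 0.10), or 1.99-fold with a 95% interval of 1.72 to 2.32 (edgeR adjusted p = 5.05e-07). The call held under all 13 alternatives, with log2 fold changes between 0.84 (without DKO replicate 3) and 1.14 (without LKO replicate 2).

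Of 30 interferon-induced genes in the list used, 28 rose in DKO and none fell (median log2 fold change 0.57). The largest differences were those of Ifi44 (log2 fold change 3.16), the oligoadenylate synthetase-like Oasl1 (1.58) and Irf7 (1.24), the transcription factor that amplifies type I interferon. By smallest p the fourth was the DNA sensor Ifi204, at 88.4 ± 7.67 FPKM in DKO and 54.0 ± 3.37 FPKM in LKO. Irf7 stood at 187.04, 187.96 and 211.65 FPKM in DKO, against 68.26, 98.23 and 83.32 FPKM in LKO. Ranked by Siglec1, by Irf7 or by the sum of the 30 genes, the 6 libraries took the same order. Each of these was higher in every DKO library than in any LKO library, so only the order within a group could differ. The part of interferon in the Siglec1 difference was not tested.

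**Figure D2:**
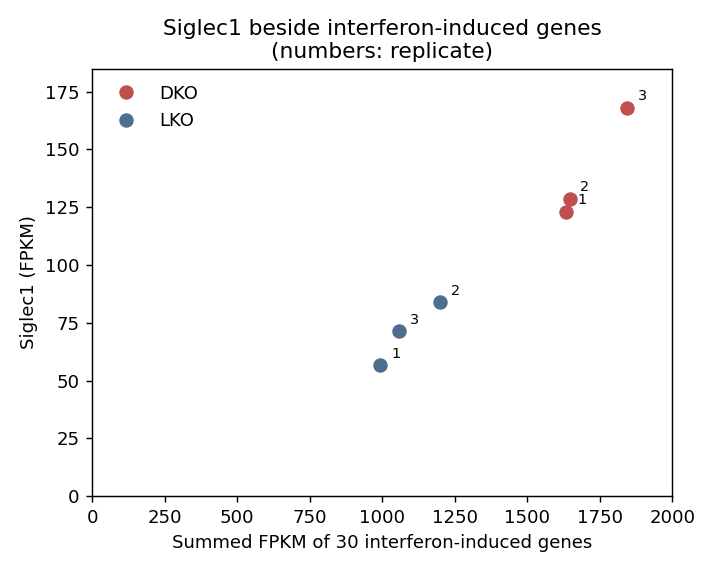
Siglec1 level (FPKM) against the summed FPKM of 30 interferon-induced genes, 1 point per library, with the replicate number beside it. The 3 DKO libraries, at sums of 1635 to 1844, sit above the 3 LKO libraries, at sums of 993 to 1198, and the order of libraries is the same on both axes. Because the groups lie apart on both axes, only the order within a group could differ.

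Pirb encodes PIR-B, an ITIM receptor for MHC class I molecules. It was slightly higher in DKO, at 213.05, 221.03 and 226.84 FPKM, against 196.44, 205.91 and 202.06 FPKM in LKO. The groups did not overlap, but the lowest DKO and the highest LKO library were close. The difference was 1.10-fold, with a 95% interval of 1.04 to 1.17 (log2 fold change 0.14, standard error 0.04, edgeR adjusted p = 0.0250). The call was lost without DKO replicate 2 (edgeR adjusted p = 0.0771), DKO replicate 3 (0.163) or LKO replicate 3 (0.0651), and in the limma fits (0.0756 to 0.108). Its counts were fractional in every library, as they can be where reads are divided among similar genes, and the value is uncertain.

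Lair1 encodes a receptor for collagens with 2 ITIMs. It stood at 23.59, 23.03 and 23.71 FPKM in DKO, against 30.20, 27.43 and 27.18 FPKM in LKO. All DKO libraries were lower than all LKO libraries, and LKO replicate 1 was the highest. The difference was 0.832-fold, with a 95% interval of 0.769 to 0.900 (log2 fold change -0.27, standard error 0.05, edgeR adjusted p = 0.00168). This call held under all 13 alternatives, with log2 fold changes between -0.30 and -0.22.

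Cd33, another sialic acid-binding lectin of myeloid cells, was the least abundant of the genes. It stood at 4.54, 4.6 and 3.67 FPKM in DKO, against 5.69, 5.28 and 5.45 FPKM in LKO. The groups did not overlap, with DKO replicate 3 the lowest. The difference was 0.784-fold, with a 95% interval of 0.664 to 0.926 (log2 fold change -0.35, standard error 0.12, edgeR adjusted p = 0.0456). This call passed in only 2 of the 13 alternatives and was lost in DESeq2 (adjusted p = 0.206), as well as without any of DKO replicates 1 and 3 and LKO replicates 1, 2 and 3 (edgeR adjusted p between 0.0665 and 0.227).

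Mouse neutrophils also carry CD33. Of 15 neutrophil markers tested, 9 fell in DKO and none rose (median log2 fold change -0.57). By smallest p they were led by Chil1 (2.15 ± 0.110 FPKM in DKO, 10.1 ± 0.211 FPKM in LKO), S100a9 (172 ± 13.6 and 274 ± 13.7 FPKM), the granule gene Ngp (78.7 ± 7.53 and 121 ± 5.6 FPKM) and S100a8 (80.0 ± 0.661 and 127 ± 13.6 FPKM). No neutrophil marker was at 0 in any library. Their part in the lower Lair1 and Cd33 was not tested.

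**Figure D3:**
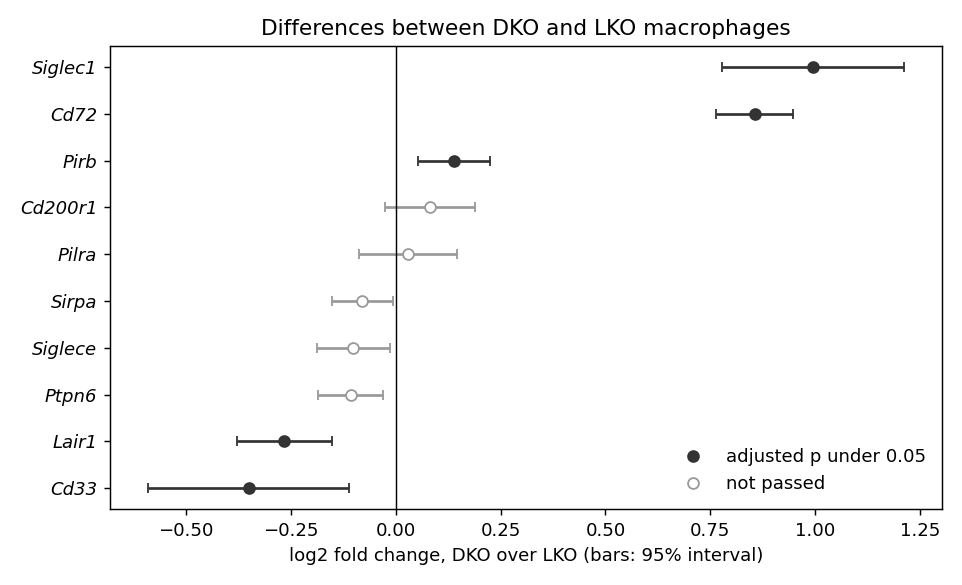
Log2 fold change of DKO over LKO for each of the 10 genes from edgeR, with its 95% interval; filled points passed an adjusted p of 0.05 and open points did not. Siglec1 (0.996) and Cd72 (0.86) lie far to the right of the other 8.

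Among the 5 genes that did not pass, the differences were small and their intervals narrow. Ptpn6, the phosphatase itself, stood at 411.56, 405.54 and 403.97 FPKM in DKO, against 442.52, 439.71 and 443.27 FPKM in LKO. The groups did not overlap, and the 95% interval of the fold, not adjusted for the number of genes, was 0.880 to 0.979 (edgeR adjusted p = 0.0567). DESeq2 called it lower (adjusted p = 0.0245), as did edgeR without LKO replicate 1 (0.0403).

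Sirpa, the receptor for CD47 that restrains phagocytosis, was the most abundant of the genes. Its values were 459.65, 467.12 and 459.65 FPKM in DKO and 485.30, 493.06 and 495.60 FPKM in LKO, without overlap (fold interval 0.900 to 0.996, edgeR adjusted p = 0.157). Siglece, an ITIM-bearing lectin for sialic acids on mouse myeloid cells, stood at 329.50, 343.63 and 327.03 FPKM in DKO, against 344.99, 364.90 and 370.74 FPKM in LKO (fold interval 0.878 to 0.990, edgeR adjusted p = 0.119). The highest DKO library lay just below the lowest LKO library, and without LKO replicate 1 Siglece passed as lower (edgeR adjusted p = 0.0176). Cd200r1, the receptor for CD200, had overlapping groups, at 90.56, 92.85 and 86.21 FPKM in DKO and 91.59, 83.72 and 81.37 FPKM in LKO (fold interval 0.983 to 1.14, edgeR adjusted p = 0.345). Pilra, an ITIM receptor for sialylated O-glycan proteins, also overlapped, at 44.88, 45.58 and 51.63 FPKM in DKO and 46.63, 47.67 and 45.93 FPKM in LKO (fold interval 0.942 to 1.11, edgeR adjusted p = 0.806). Its log2 fold change was 0.03 with all libraries and -0.04 without DKO replicate 3, the highest library. Counts of Siglece, Cd33, Pilra and Cd200r1 were, like those of Pirb, fractional in every library, and their values are uncertain for the same reason, while counts of the other 5 genes were whole within 0.005.

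By FPKM, which allows genes to be compared per length, the order in DKO was Sirpa, Ptpn6, Siglece, Cd72, Pirb, Siglec1, Cd200r1, Pilra, Lair1 and Cd33. No neighbours in that order had overlapping ranges. In LKO the order was Sirpa, Ptpn6, Siglece, Pirb, Cd72, Cd200r1, Siglec1, Pilra, Lair1 and Cd33, and only Cd200r1 and Siglec1 overlapped. Cd72 and Pirb changed places: the ratio of Cd72 to Pirb FPKM within a library was 1.46, 1.41 and 1.31 in DKO, against 0.854, 0.882 and 0.852 in LKO. The ratio of Cd72 to Ptpn6 was 0.752 ± 0.017 in DKO and 0.394 ± 0.017 in LKO (SD, n = 3 each), and that of Cd72 to Siglece was 0.918 ± 0.021 and 0.483 ± 0.017. The level of Cd72 in DKO therefore came close to that of Siglece without reaching it in any library.

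**Figure D4:**
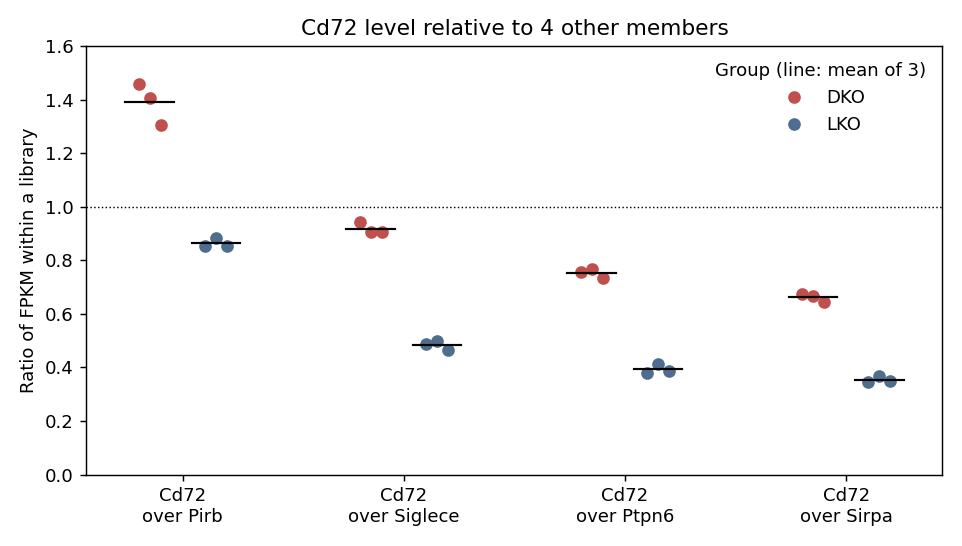
Ratio of the Cd72 FPKM to that of Pirb, Siglece, Ptpn6 and Sirpa within each library, as points for 3 DKO and 3 LKO libraries with a line at the mean; the dotted line marks equal levels. Only the ratio to Pirb crosses 1, above it in every DKO library and below it in every LKO library.

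The promoters of the called genes are shown for the letters of 3 motifs: the core of the myeloid factor PU.1, GAGGAA, that of the interferon response element, which is GAAA, any 2 bases and GAAA again, and that of the antioxidant response element, TGACNNNGC. Each was sought on both strands in the 250 bases before the RefSeq start (GRCm38.p6, which is not the build named for the files). The table of promoters held 7 of the 10 genes, and 4 of the called ones. Siglec1, also a called gene, Sirpa and Cd200r1 were absent from it, so their promoters were not searched. Each sequence runs 5′ to 3′ on the strand of its gene, the minus strand for all 4, and capitals mark motif matches. They are Cd72 at chr4:43454627-43454876, Pirb at chr7:3720383-3720632, Cd33 at chr7:43533172-43533421 and Lair1 at chr7:4063205-4063454.
Cd72: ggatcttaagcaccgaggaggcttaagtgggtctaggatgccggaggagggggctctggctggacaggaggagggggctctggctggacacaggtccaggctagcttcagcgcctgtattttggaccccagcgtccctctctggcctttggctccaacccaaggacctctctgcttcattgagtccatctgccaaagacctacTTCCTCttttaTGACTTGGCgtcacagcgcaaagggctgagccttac
Pirb: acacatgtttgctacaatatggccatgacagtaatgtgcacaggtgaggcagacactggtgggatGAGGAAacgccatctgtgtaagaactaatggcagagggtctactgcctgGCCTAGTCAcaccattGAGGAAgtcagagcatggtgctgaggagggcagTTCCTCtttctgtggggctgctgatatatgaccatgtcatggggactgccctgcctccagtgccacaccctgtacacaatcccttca
Cd33: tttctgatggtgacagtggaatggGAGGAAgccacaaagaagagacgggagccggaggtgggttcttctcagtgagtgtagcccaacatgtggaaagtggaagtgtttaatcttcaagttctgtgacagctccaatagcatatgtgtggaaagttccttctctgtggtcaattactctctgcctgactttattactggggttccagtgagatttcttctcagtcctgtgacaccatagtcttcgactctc
Lair1: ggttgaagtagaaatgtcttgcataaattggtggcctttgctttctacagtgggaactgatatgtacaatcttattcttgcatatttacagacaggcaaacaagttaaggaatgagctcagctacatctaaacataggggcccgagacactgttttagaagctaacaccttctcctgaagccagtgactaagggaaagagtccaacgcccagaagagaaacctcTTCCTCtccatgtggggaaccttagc

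The Cd72 promoter held a PU.1 core on the opposite strand, TTCCTC, whose first base lies 47 bases before the start, and an antioxidant element core, TGACTTGGC, that begins 36 bases before the start; they do not overlap. Pirb had 3 PU.1 cores and 1 antioxidant core, GCCTAGTCA on the opposite strand. Cd33 and Lair1 had 1 PU.1 core each, that of Lair1 26 bases before the start. Across the 7 promoters, 6 held a PU.1 core, 3 an antioxidant core and 1, that of Pilra, an interferon core. Of 32851 promoters in the table, 23.3% held the PU.1 letters, 10.2% the antioxidant letters and 2.98% the interferon letters. A match is a run of letters and does not show that a factor binds there.

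Other inhibitory receptors of myeloid cells and lymphocytes moved in both directions: of 17 tested, 3 rose, 2 fell and 12 did not pass (median log2 fold change -0.03). Cd300a, a lipid-binding ITIM receptor, rose to 50.1 ± 1.01 FPKM in DKO, against 45.2 ± 1.12 FPKM in LKO (log2 fold change 0.16, edgeR adjusted p = 0.0175). The lectin-like receptor gene Klra2 (0.25) and the ITIM lectin gene Clec4a2 (0.12) also rose. Cd244a, a SLAM family receptor, fell to 10.1 ± 0.635 FPKM in DKO, against 14.1 ± 0.146 FPKM in LKO (log2 fold change -0.47, edgeR adjusted p = 1.66e-05). Siglecg, a lectin mainly of B cells, fell at very low levels, with 0.283 FPKM in DKO and 0.693 FPKM in LKO. Lilrb4a and the Fc receptor gene Fcgr2b, known brakes on macrophages, did not pass (edgeR adjusted p = 0.839 and 0.581).

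Of 20 activating and paired receptors tested, 10 rose, 2 fell and 8 did not pass (median log2 fold change 0.21). By smallest p they were led by the lectin receptor gene Clec4d (116 ± 8.18 FPKM in DKO, 70.5 ± 5.26 FPKM in LKO), the DAP12 partner Trem2 (log2 fold change 0.79), the Fc receptor gene Fcgr3 (0.59) and the lectin receptor gene Clec4n, Dectin-2 (0.64). The 2 that fell were Cd300ld (log2 fold change -0.20) and Clec5a (-0.81), and Clec5a lay at 0.95 FPKM or less in every library. Of 10 macrophage markers, 6 rose in the same libraries and 1, Adgre1, fell, while the others, among them Cd68 and Itgam, did not pass. Their sums were between 11679 and 12997 FPKM in DKO and between 10260 and 11045 FPKM in LKO. Most of each sum was Lyz2, at 7616 ± 580 FPKM in DKO and 6105 ± 337 FPKM in LKO. Fcgr1, which rose, was counted both as an activating receptor and as a macrophage marker. The part of the macrophage markers in the rises of activating receptors was not tested.

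The activating relatives of the 10 genes differed among themselves. Sirpb1a, the DAP12-coupled relative of Sirpa, stood at 57.58, 49.74 and 54.91 FPKM in DKO, against 43.96, 43.59 and 43.82 FPKM in LKO (log2 fold change 0.32, standard error 0.06, edgeR adjusted p = 0.00116). Its close copies Sirpb1b (0.55) and Sirpb1c (0.54) rose as well, and reads may be split among them. The ratio of Sirpa to Sirpb1a FPKM was 7.98, 9.39 and 8.37 in DKO, against 11.04, 11.3 and 11.3 in LKO, without overlap. Pilrb1 and Pilrb2, partners of Pilra, did not pass (edgeR adjusted p = 0.547 and 0.676), nor did Pira2, a relative of Pirb (0.880), or Cd200r4, a relative of Cd200r1 (0.643). The 95% intervals of their log2 fold changes reached no further than -0.29 and 0.26.

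**Figure D5:**
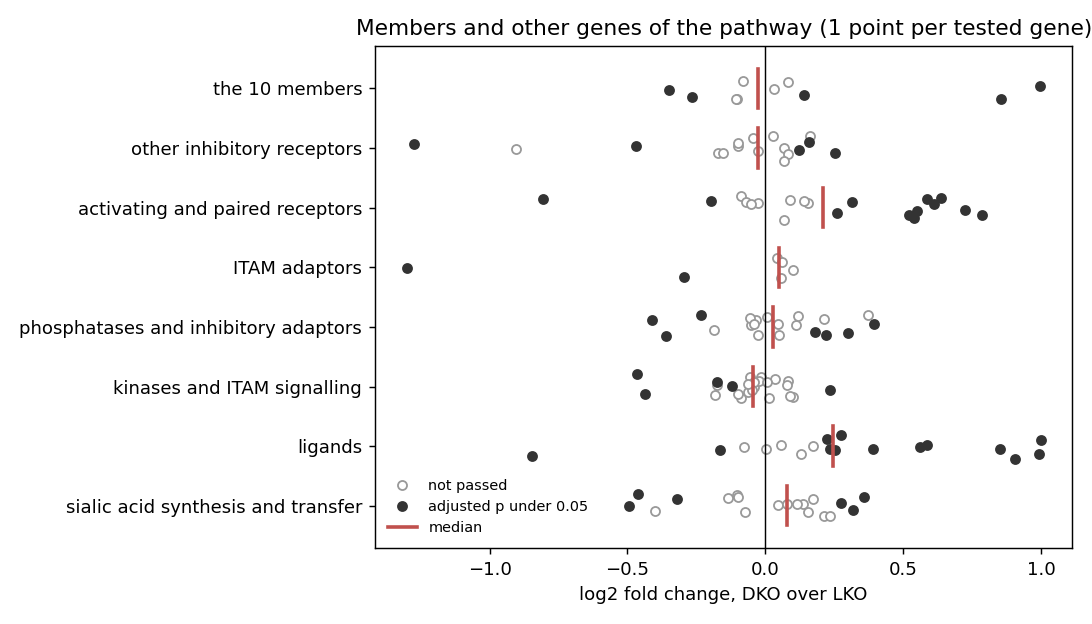
Log2 fold change of DKO over LKO for each tested gene of the 10 described and of 7 lists of related genes, with filled points past an adjusted p of 0.05, open points that did not pass, and a bar at the median of each list. The medians of the activating receptors (0.21) and of the ligands (0.25) lie right of 0, and those of both sets of inhibitory receptors (-0.02 and -0.03) next to it.

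Of the adaptors through which activating receptors signal, Tyrobp averaged 1081 ± 61.0 FPKM in DKO and 1046 ± 25.9 FPKM in LKO, and Fcer1g averaged 3207 ± 85.4 and 3135 ± 58.0 FPKM (SD, n = 3 each). Neither passed (edgeR adjusted p = 0.460 and 0.501). Of 6 adaptors none rose and 2 fell, the B cell receptor chains Cd79a and Cd79b. The 2 with next smallest p were Tyrobp and Fcer1g.

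Among 20 phosphatases and inhibitory adaptors 4 rose and 3 fell (median log2 fold change 0.03). Ptpn11, which encodes SHP-2, rose to 35.21, 35.09 and 34.55 FPKM in DKO, against 31.63, 30.14 and 31.51 FPKM in LKO (log2 fold change 0.18, standard error 0.04, edgeR adjusted p = 0.00776). The ratio of Ptpn6 to Ptpn11 FPKM was 11.6 ± 0.077 in DKO and 14.2 ± 0.326 in LKO (SD, n = 3 each). Inpp5d, which encodes SHIP1, did not pass, at 109 ± 2.00 FPKM in DKO and 109 ± 3.23 FPKM in LKO (edgeR adjusted p = 0.951), while its relative Inppl1 rose (log2 fold change 0.30). Dok1 and Dok2, adaptors of CD200R1, both rose. Dok1 averaged 53.7 ± 2.76 FPKM in DKO and 41.2 ± 1.17 FPKM in LKO, and Dok2 46.2 ± 3.50 and 39.9 ± 4.26 FPKM with overlapping groups. The genes that fell were Ptpn22 (log2 fold change -0.41), Ubash3b (-0.36) and Sla (-0.23), which restrain antigen receptor or Syk signalling.

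Of 24 kinases and other genes of ITAM signalling, 1 rose and 4 fell (median log2 fold change -0.04). Blnk, an adaptor downstream of Syk that macrophages share with B cells, fell to 68.31, 70.09 and 69.11 FPKM in DKO, against 94.43, 99.38 and 95.03 FPKM in LKO (log2 fold change -0.47, standard error 0.05, edgeR adjusted p = 2.34e-07). Lat2 (-0.44), Skap2 (-0.18) and Fyb (-0.12) fell too, and the Src family kinase gene Fgr rose (0.23). Lyn, a Src family kinase that phosphorylates ITIMs, did not pass (edgeR adjusted p = 0.639).

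The ligands of these receptors rose in 11 of 18 tested genes and fell in 2 (median log2 fold change 0.25). Many of the rises came from related genes. C1qa, C1qb and C1qc, of the same complement complex, rose, and C1qa was also counted as a macrophage marker. The class I genes H2-K1, H2-D1 and B2m and the collagen genes Col1a1, Col1a2 and Col3a1 were also among those that rose. The class I ligands of PIR-B were among them: H2-K1 averaged 993 ± 23.0 FPKM in DKO and 677 ± 24.9 FPKM in LKO, and H2-D1 averaged 1932 ± 45.5 FPKM in DKO and 1296 ± 64.2 FPKM in LKO (SD, n = 3 each; edgeR adjusted p = 1.29e-09 and 7.81e-10). Class I genes resemble each other closely, so their reads may be split. Rtn4, which encodes Nogo, another ligand of PIR-B, did not pass, at 95.8 ± 3.03 FPKM in DKO and 96.7 ± 4.39 FPKM in LKO (edgeR adjusted p = 0.984). The collagen genes Col1a2 and Col1a1, whose products bind LAIR-1, had log2 fold changes of 1.0 and 0.99, and 7 of 8 tested stromal markers, these 2 included, rose with none falling. Their sum was between 74.0 and 99.6 FPKM in DKO and between 44.8 and 51.8 FPKM in LKO, and the part of stromal cells in the collagens was not tested. Spn (CD43), a ligand of sialoadhesin, fell to 7.93 ± 0.670 FPKM in DKO, against 13.7 ± 0.374 FPKM in LKO (log2 fold change -0.85, edgeR adjusted p = 6.72e-09), and Thbs1 fell slightly (-0.16). Sema4d, the ligand of CD72, did not pass, at 30.7 ± 1.94 FPKM in DKO and 27.5 ± 2.73 FPKM in LKO (edgeR adjusted p = 0.0830). Cd47, the ligand of SIRPα, averaged 63.0 ± 3.56 FPKM in DKO and 58.0 ± 1.38 FPKM in LKO (edgeR adjusted p = 0.112). Cd200 stayed at 0.63 FPKM or less in every library and was too low to be tested.

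The genes whose pattern over the 6 libraries was most like that of Cd72 were, among 7696 with a mean of at least 5 FPKM, H2-K1, Crtap, Qpctl, Folr2 and Nnt. Their Pearson correlation with Cd72 on log2(CPM + 1), where CPM is a count scaled to library size, was between 0.996 and 0.999. Libraries of the same group share their genotype, so this order mainly follows the difference between groups, and no p is given. H2-K1 encodes an MHC class I heavy chain, Crtap a collagen prolyl hydroxylation factor, Qpctl a glutaminyl cyclase, Folr2 a folate receptor of macrophages and Nnt the mitochondrial transhydrogenase that makes NADPH. Folr2 averaged 96.1 ± 1.59 FPKM in DKO and 54.1 ± 3.46 FPKM in LKO, and Nnt averaged 21.9 ± 0.795 FPKM in DKO and 14.8 ± 0.379 FPKM in LKO (SD, n = 3 each). For Nnt the ratio of mean FPKM was 1.48, and the fitted difference in counts, which is not scaled to length, was 1.68-fold. Among the 10 genes themselves, the correlation with Cd72 ranged from -0.98 for Ptpn6 to 0.92 for Siglec1.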

How the data were processed

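RNA of 6 libraries was measured, 3 DKO and 3 LKO, grouped by their titles. The deposited files hold expected counts, the authors' estimates of reads per gene, and FPKM, scaled by the authors to transcript length and library size, per the file headers; each lists only genes of 0.01 FPKM or more, and a missing gene was taken as 0. The length in those deposited files is in bases. The submitters' processing notes list Bowtie 0.12.2 and build mm8; for the counting tool and the strand setting, nothing is stated. Symbols came from RefSeq (GRCm38.p6), which matched 16832 of 16871 genes; the 39 others held up to 0.0448% of any library's counts and were tested too.

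Rounded counts went into edgeR 4.0.16 (R 4.3.3) and its quasi-likelihood test, after filterByExpr and TMM and without a block. Calls needed 0.05 after Benjamini-Hochberg correction across 11809 genes. Standard errors and 95% intervals came from the fold change and F. Means ± SD are of FPKM. Alternatives were DESeq2 1.42.0, its size factors, no filter, a replicate block and leaving out each library. Limma 3.58.1 was also run on log2(FPKM + 1) or log2(FPKM + 0.1) with a filter of 1 FPKM in 3 libraries. A further limma fit on log2(FPKM + 1) had no filter. Limma fold changes understate low genes. Libraries of a group differed by more than sampling noise (chi-square per degree of freedom 1.68 to 3.71, against 8.30 to 14.9 between groups), so each counted as 1 sample.

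The 10 genes, the lists and the motifs were chosen with earlier results of these data known. Of 267 list names, 258 were found. Besides the 10 genes and Aldh2, those named are the 4 of smallest p of each list, called genes where 5 or fewer went in a direction, their partners and ligands, and the 5 most like Cd72; other list genes named were chosen after their values were seen.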

Additional observations from a re-analysis of the deposited data

How the results depend on the processing

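The calls of Cd72, Siglec1, Lair1 and Aldh2 held under all 13 alternatives. The number of genes called was 1689 in edgeR, 1119 in limma on log2(FPKM + 0.1), 807 in limma without a filter and 1175 to 1481 with 1 library left out. Of the 10 genes 5 were called in edgeR, 3 in each of the 3 limma fits and 3 to 6 with 1 library left out. Cd33 (log2 fold change) was not called in DESeq2 (-0.35), without a filter (-0.35) or in limma (-0.30, -0.36 with the smaller pseudocount, -0.30 without a filter); with 1 library left out it lay between -0.41 and -0.26. Pirb was not called in limma (0.13 in each fit) and lay between 0.11 and 0.16 with 1 library left out. Ptpn6 was called in DESeq2 (-0.11); with 1 library left out it lay between -0.12 and -0.10, Siglece between -0.13 and -0.082, and Pilra between -0.041 and 0.068, with the sign turned without DKO replicate 3. In DESeq2, 3 other inhibitory receptors and 4 B cell markers were called, against 5 and 7 in edgeR. Of the T and NK cell markers, 1 was called in edgeR, and 0 in DESeq2 or with the block (2 and 1 at an unadjusted p under 0.05). Fits with 1 library left out have fewer samples; otherwise the cause was not tested.

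Replicate numbers did not pair the libraries: the correlations of same-numbered deviations were between -0.067 and 0.0037, and 0 of the DKO libraries correlated best with their own number. With the replicate block 1553 genes were called, and Cd33 (-0.35, edgeR adjusted p = 0.0569) was the only one of the 10 genes whose call changed.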

Other observations

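Genes that make, attach or remove sialic acid, the sugar that Siglec receptors and PILRα recognise, moved in both directions. Of 19 tested, 3 rose, 3 fell and 13 did not pass, with a median log2 fold change of 0.08. Cmah, which converts one form of sialic acid into another, averaged 4.92 ± 0.268 FPKM in DKO and 6.75 ± 0.264 FPKM in LKO (log2 fold change -0.46, edgeR adjusted p = 1.22e-05). The sialyltransferase genes St3gal2 (-0.32) and St3gal6 (-0.49) fell, and St3gal4 (0.36), St6gal1 (0.32) and St8sia4 (0.27) rose.

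Markers of dendritic, T, NK and mast cells were low. Of 4 dendritic cell markers tested 1 fell, Ccr7, at 0.680 FPKM in DKO and 1.66 FPKM in LKO, and the summed level of 9 such markers was at most 6.51 FPKM. Of 3 T and NK cell markers tested 1 fell, Cd4 (log2 fold change -0.25). Of 6 mast cell and basophil markers only Kit was abundant enough for the test, and it did not pass (edgeR adjusted p = 0.853). Of the macrophage markers, the 4 of smallest p, Mertk, Fcgr1, Csf1r and C1qa, all rose, with log2 fold changes between 0.39 and 0.52.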
